A study of Mus musculus with 12 samples.

Results

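The genes described here are 9 members of the inflammasome, pyroptosis and cell death machinery, Nlrp3, Pycard, Casp1, Casp4, Gsdmd, Casp8, Ripk3, Mlkl and Apaf1, out of 54532 genes in the count table. They were taken by gene symbol, and each symbol matched 1 row. They were chosen by function and with their read counts over the 4 groups known, so their levels and changes are given as a description, and the adjusted p-values beside them are not independent support. RNA of whole mouse spinal cord was sequenced in 12 libraries, 3 in each of 4 groups, from C57BL/6 mice aged 2 to 3 months. The groups were Drd2mGFAP conditional knockout mice (cKO) at day 17 of experimental autoimmune encephalomyelitis (EAE), control mice (genotype wt, littermates) at day 17 of EAE, cKO mice without disease (basal) and control mice without disease. EAE is an immune attack on myelin that is induced by immunization and serves as a model of multiple sclerosis, and the series places the sampled day at the peak of disease. The cKO label names GFAP, whose promoter is active in astrocytes, and Drd2, which encodes a dopamine receptor. Since whole cord was sequenced, a change in 1 cell type is diluted by RNA of all the others. By its title, the series concerns DRD2 of astrocytes and neuroinflammation.

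An inflammasome is a protein complex that forms when a sensor such as NLRP3 detects danger or infection. The sensor recruits the adaptor ASC, the product of Pycard, which gathers and activates caspase-1. Caspase-1 cuts the precursors of interleukin-1 beta and interleukin-18 and also cuts gasdermin D, whose released part forms pores in the cell membrane and leads to the lytic death called pyroptosis. Caspase-4, named caspase-11 in mice, detects bacterial lipopolysaccharide inside the cell and cuts gasdermin D directly. Caspase-8 starts apoptosis below death receptors and restrains necroptosis, in which the kinase RIPK3 phosphorylates MLKL and MLKL ruptures the membrane. APAF1 builds the apoptosome on cytochrome c released from mitochondria. In the nervous system, microglia and blood-derived myeloid cells are well-known sources of inflammasome proteins.

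Library totals ran from 15128913 to 17592105 counts. In libraries of the cKO, 2 stood apart. cKO basal 2 had 17220 detected genes, against 24303 to 26056 in the 11 other libraries. cKO EAE 3 had 6.84 CPM (read counts scaled to a common library total) of the antigen presentation gene Cd74, against 345 to 2759 CPM in the 5 other EAE libraries. By contrast, the 15781928 counts and 25183 detected genes of cKO EAE 3 lay within the range of the other libraries. Since Cd74 is an immune gene, leaving out cKO EAE 3 selects on the immune response itself. Calls made without it are therefore a description only. Main results for the 9 genes are given with and without these 2 libraries. Group means and SD include them unless stated otherwise. Xist, transcribed from the inactive X chromosome, had 316 to 753 CPM in basal libraries and at most 0.287 CPM in EAE libraries, while the Y-linked Ddx3y had 69.7 to 74.5 CPM in EAE libraries and 0 counts in every basal library. The EAE libraries therefore held male RNA and the basal libraries female RNA, so that EAE and sex cannot be told apart in any EAE against basal comparison. Drd2 averaged 12.9 ± 6.34 CPM in cKO EAE and 9.17 ± 0.396 CPM in control EAE (SD, n = 3 each), a log2 difference of 0.52 (SE 0.35, adjusted p = 0.318 in edgeR). At basal it averaged 28.6 ± 9.5 CPM in cKO and 21.9 ± 4.02 CPM in control libraries, a log2 difference of 0.40 (SE 0.34, adjusted p = 0.997). The mean of the targeted gene was thus not lower in cKO cord RNA. The labels do not say which part of it was deleted, and other cells of the cord also carry the gene, so its whole-gene count does not check the genotype. Markers of neurons, astrocytes and oligodendrocytes were counted in every group, as the tissue label implies.

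Promoter sequences are shown because the genes moved together during EAE. They come from RefSeq on GRCm38.p6, and 8 of the 9 genes, all but Gsdmd, matched 10 windows of 300 bases that run from 250 before to 50 after an annotated start. Letters of 3 motifs were searched on both strands: the ISRE core GAAANNGAAA bound by interferon-activated factors, the GAS letters TTCNNNGAA bound by STAT dimers, and the kappa B consensus, by name, bound by NF-kB. The kappa B consensus was found in 3 of the 10 windows, and in 4.51% of 32841 promoter windows of the same length. The 3 were 2 overlapping windows of Casp4, which hold the same letters, and 1 of Nlrp3, whose other window had no match. Thus 2 of the 8 genes had a match. None of the 8 held the ISRE core, which 3.44% of all promoters held, or the GAS letters, which 8.3% held. The 250 bases before the start are printed for Casp4 and Nlrp3, with the kappa B letters in capitals, and for Casp1, the neighbour of Casp4 on the same strand, which had no match. In Casp4 the capitals cover 2 overlapping matches that begin at positions -93 and -92 from the start, and in Nlrp3 a match on the minus strand that begins at -186. The windows are chr9:5308599-5308848 for Casp4, chr11:59541319-59541568 for Nlrp3 and chr9:5298267-5298516 for Casp1, all on the plus strand. A match says only that the letters are there.
Casp4: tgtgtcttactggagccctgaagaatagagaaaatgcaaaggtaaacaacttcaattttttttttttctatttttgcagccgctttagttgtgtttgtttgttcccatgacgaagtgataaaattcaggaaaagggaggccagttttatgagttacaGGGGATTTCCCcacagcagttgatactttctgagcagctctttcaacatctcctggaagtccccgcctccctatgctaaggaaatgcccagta
Nlrp3: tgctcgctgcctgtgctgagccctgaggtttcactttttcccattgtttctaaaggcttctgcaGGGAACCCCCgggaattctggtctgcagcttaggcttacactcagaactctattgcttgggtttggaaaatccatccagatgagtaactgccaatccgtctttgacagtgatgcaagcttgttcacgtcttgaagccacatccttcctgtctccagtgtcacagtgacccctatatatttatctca
Casp1: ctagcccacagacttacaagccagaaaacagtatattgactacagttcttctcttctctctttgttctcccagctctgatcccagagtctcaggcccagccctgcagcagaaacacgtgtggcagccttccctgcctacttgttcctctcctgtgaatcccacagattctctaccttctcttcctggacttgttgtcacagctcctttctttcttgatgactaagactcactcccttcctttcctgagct

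Levels below are CPM after edgeR's TMM scaling between libraries, in the order of libraries 1, 2 and 3 of each group. Calls were made where edgeR's quasi-likelihood test, adjusted by Benjamini-Hochberg over all genes tested, gave p below 0.05. In whole tissue, fewer cells of a type and less RNA per cell cannot be told apart.

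Nlrp3 (ENSMUSG00000032691, chromosome 11, 59541568 to 59566956, plus strand, build mm10) encodes the sensor. It had 6.15, 8.99 and 1.09 CPM in cKO EAE libraries and 26.7, 19.5 and 22.4 CPM in control EAE libraries. Basal libraries had 0.872, 1.46 and 0.358 CPM in cKO and 0.318, 1.22 and 0.608 CPM in control mice. The control EAE libraries were the highest of all, cKO EAE 1 and 2 lay between them and the basal libraries, and cKO EAE 3 lay within the basal range. Between control EAE and control basal libraries Nlrp3 rose by 4.98 on the log2 scale (SE 0.79, adjusted p = 0.00321). At EAE its log2 fold change in cKO against control libraries was -2.04 (SE 0.61, adjusted p = 0.0752), the most negative of the 9.

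Pycard (ENSMUSG00000030793, chromosome 7, 127989708 to 127993867, minus strand) encodes the adaptor ASC. Its levels were 10.3, 15.9 and 1.95 CPM in cKO EAE libraries, against 33.4, 26.4 and 27.0 CPM in control EAE libraries. Basal values were 2.21, 5.82 and 1.79 CPM in cKO and 1.21, 1.66 and 2.43 CPM in control libraries. The highest basal value was that of cKO basal 2, and cKO EAE 3 was again within the basal range. Pycard was higher in control EAE than in control basal libraries by 4.03 log2 units (SE 0.72, adjusted p = 0.00444). The antisense gene Gm45205 overlaps its start and had 144 counts over the 12 libraries, against 2190 of Pycard. Whether the counting used strand is not given in the sources used here, so reads of such a pair cannot be told apart.

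Casp1 (ENSMUSG00000025888, chromosome 9, 5298517 to 5307265, plus strand) encodes the protease of the canonical inflammasome. It had 8.28, 13.5 and 1.22 CPM in cKO EAE libraries and 26.4, 18 and 23.0 CPM in control EAE libraries. At basal it had 1.16, 4.0 and 1.37 CPM in cKO and 2.16, 1.33 and 1.71 CPM in control libraries. As with Pycard, cKO basal 2 held the highest basal level. Casp1 rose by 3.69 log2 units in control mice with EAE (SE 0.76, adjusted p = 0.00794).

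Casp4 (ENSMUSG00000033538, chromosome 9, 5308828 to 5336783, plus strand) begins 1562 bases after the end of Casp1. It was almost undetected at basal, with 0.174, 0 and 0.239 CPM in cKO libraries (3, 0 and 4 counts) and 0.382, 0.221 and 0.442 CPM in control libraries (6, 4 and 8 counts). EAE libraries held 11.1, 14.9 and 0.912 CPM in cKO and 31.9, 29.1 and 39.5 CPM in control mice. Its change in control mice with EAE, 6.56 log2 units (SE 0.95, adjusted p = 0.00318), was the largest of the 9. Casp4 was also one of 3 members, with Casp8 and Gsdmd, whose 3 cKO EAE libraries all exceeded all 3 cKO basal libraries. Casp1 and Casp4 are related in sequence, and the treatment of reads that fit both is not given in the sources used here, so their split is uncertain.

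Gsdmd (ENSMUSG00000022575, chromosome 15, 75862327 to 75867408, plus strand) encodes the pore former that both inflammatory caspases cut. Its levels were 17.4, 25.9 and 3.89 CPM in cKO EAE libraries, against 67.2, 39.9 and 46.5 CPM in control EAE libraries. Basal libraries had 2.73, 1.00 and 1.73 CPM in cKO and 2.23, 2.65 and 2.15 CPM in control mice. All EAE libraries exceeded all basal libraries, by the least in cKO EAE 3. Gsdmd rose by 4.44 log2 units in control mice with EAE (SE 0.63, adjusted p = 0.00318).

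Casp8 (ENSMUSG00000026029, chromosome 1, 58795374 to 58847503, plus strand) had 13.8, 23.0 and 3.22 CPM in cKO EAE libraries and 41.3, 33.3 and 39.5 CPM in control EAE libraries. At basal it had 2.56, 1.09 and 2.39 CPM in cKO and 2.03, 2.60 and 1.88 CPM in control libraries. Control EAE, cKO EAE and basal libraries formed 3 ranges that did not overlap. The rise in control mice with EAE was 4.13 log2 units (SE 0.62, adjusted p = 0.00318).

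Ripk3 (ENSMUSG00000022221, chromosome 14, 55784995 to 55788865, minus strand) encodes the kinase of necroptosis. It had 2.82, 3.41 and 0.122 CPM in cKO EAE libraries and 7.96, 7.46 and 6.94 CPM in control EAE libraries. Basal libraries had 0.349, 0 and 0.239 CPM in cKO and 0.127, 0.276 and 0.276 CPM in control mice, no more than 6 counts in any of them. In cKO EAE 3 only 2 reads were counted, a level within the basal range. Ripk3 rose by 4.98 log2 units in control mice with EAE (SE 1.00, adjusted p = 0.00706).

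Mlkl (ENSMUSG00000012519, chromosome 8, 111311797 to 111338177, minus strand) encodes the membrane-rupturing target of RIPK3. Its levels were 5.92, 5.15 and 0.486 CPM in cKO EAE libraries, against 16.4, 9.35 and 13.7 CPM in control EAE libraries. At basal cKO libraries had 0.523, 1.91 and 0.298 CPM and control libraries 0.191, 0.442 and 0.442 CPM. Here too cKO basal 2 was the highest basal library, above cKO EAE 3. Mlkl rose by 5.16 log2 units in control mice with EAE (SE 0.94, adjusted p = 0.00486).

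Apaf1 (ENSMUSG00000019979, chromosome 10, 90989311 to 91082770, minus strand) encodes the scaffold of the apoptosome. It had 18.4, 23.7 and 13.3 CPM in cKO EAE libraries and 43.8, 39.1 and 40.2 CPM in control EAE libraries. Basal levels were 11.9, 16.7 and 13.9 CPM in cKO and 9.47, 11.5 and 11.4 CPM in control libraries. Alone among the 9 it was well counted at basal, with 149 counts in its lowest library. Its rise in control mice with EAE, 1.92 log2 units (SE 0.24, adjusted p = 0.00318), was the smallest of the 9 and had the smallest error. The Apaf1 levels of all 3 cKO basal libraries lay above those of all 3 control basal libraries.

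**Figure D1:**
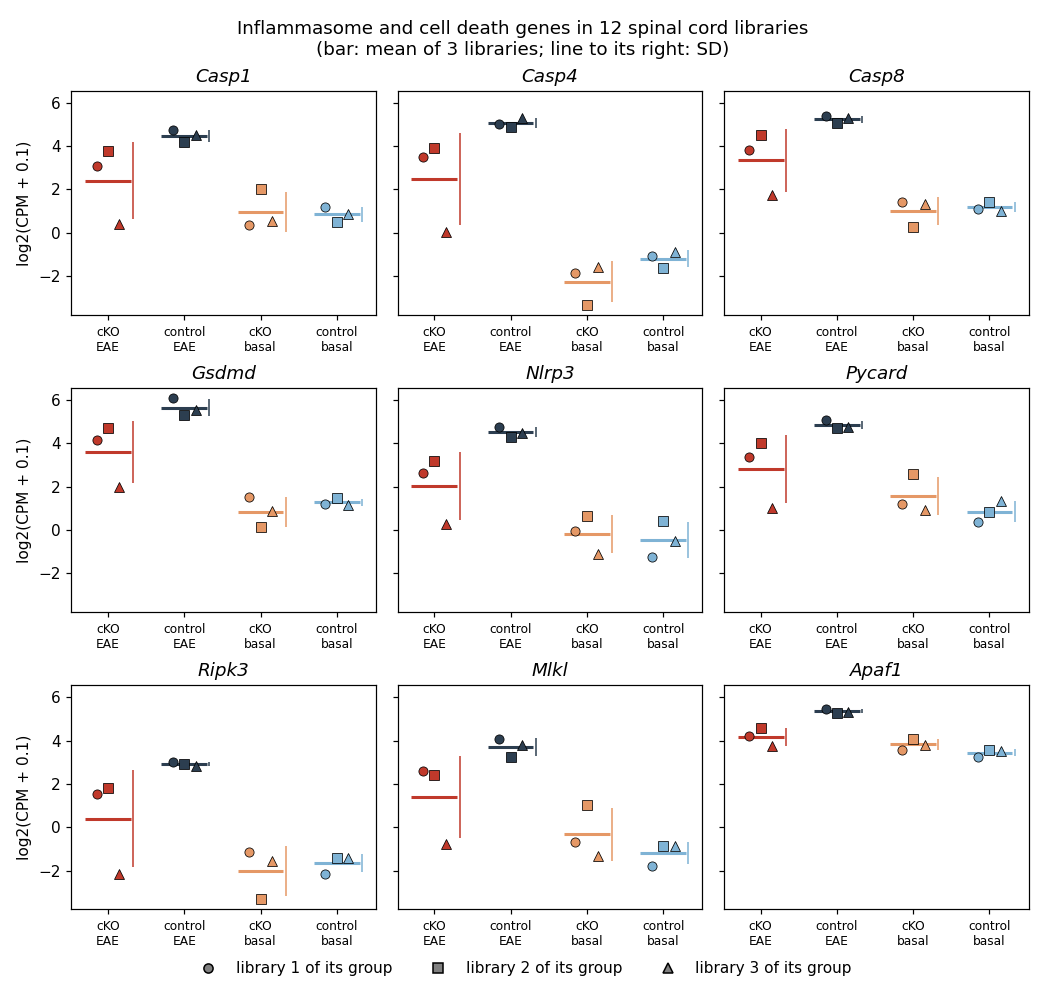
TMM-normalised level of each of the 9 genes in the 12 libraries, as log2(CPM + 0.1), with cKO EAE, control EAE, cKO basal and control basal libraries from left to right in each panel. Symbols mark libraries 1, 2 and 3 of each group, which are not taken as matched across groups, horizontal bars the mean and the thin lines the SD of 3 libraries. In every panel the 3 control EAE libraries lie above all others, and the triangle of cKO EAE 3 lies lowest of the cKO EAE libraries.

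All 9 genes were higher in control EAE than in control basal cord. They passed the threshold in 9 of 9 cases, with log2 fold changes from 1.92 to 6.56 and a median of 4.44, where the median of all genes tested was -0.01. Among all 18601 genes tested, 12.1% were called higher. Casp4, Ripk3 and Mlkl had 18, 12 and 19 counts over the control basal libraries, too few for a test in the basal libraries alone. They entered this fit through the EAE libraries where they were high, so for them the filter itself favoured a rise with EAE. The control EAE libraries exceeded all control basal libraries for all 9 genes, and 29.8% of all genes tested did so. Without cKO basal 2 and cKO EAE 3, which belong to neither group but enter the filter, the scaling and the estimate of spread, the median was 4.45 and 9 of 9 were called, against 24.9% of all genes.

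In cKO cord all 9 genes had smaller fitted responses than in control cord. None of the 9 was called by edgeR, where 0.0323% of all genes were called higher, and 8 of 9 had an unadjusted p below 0.05, as did 19.6% of all genes in either direction. DESeq2's Wald test called 5 of 9 (6.66% of all genes) and limma voom with sample weights 9 of 9 (19.6% of all genes), and edgeR without a filter on low counts 3 of 9 (1.42% of all genes). Fitted log2 fold changes in cKO EAE against cKO basal libraries ran from 0.38 for Apaf1 (SE 0.23, adjusted p = 0.387) to 5.82 for Casp4 (SE 0.99, adjusted p = 0.0726). Their median was 2.63, beside 0.08 over all genes. All 3 cKO EAE libraries exceeded all 3 cKO basal libraries for Casp4, Casp8 and Gsdmd, and 9.8% of all genes did so. Leaving out cKO EAE 3 alone, 8 of 9 were called, all but Apaf1, with 5.63% of all genes. Leaving out cKO basal 2 as well, 9 of 9 were called higher, with 10.8% of all genes, and the median was 3.26, with a range from 0.69 for Apaf1 (SE 0.18, adjusted p = 0.0199) to 5.92 for Casp4 (SE 0.36, adjusted p = 8.7e-07).

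At EAE day 17 all 9 genes had lower levels in every cKO library than in any control library, as 26.7% of all 17914 genes tested did. The mean level in cKO EAE was 0.236 times that in control EAE for Nlrp3, the lowest ratio, and 0.45 times for Apaf1, the highest. Apaf1 alone was called lower, with a mean of 18.4 ± 5.21 CPM in cKO EAE and 41.0 ± 2.47 CPM in control EAE (SD, n = 3 each), a log2 fold change of -1.12 (SE 0.20, adjusted p = 0.0440), and 1.54% of all genes were called lower. The other 8 had more negative fold changes and larger errors, from -1.48 for Casp8 (SE 0.59, adjusted p = 0.126) to -2.04 for Nlrp3. The median of the 9 was -1.67, beside 0.00 over all genes, and 7 of 9 had an unadjusted p below 0.05, as did 35.9% of all genes in either direction. DESeq2 called 5 of 9 (23.1% of all genes) and limma voom 8 of 9 (32.3%). Without cKO EAE 3 all 9 were called lower, with 9.1% of all genes. Their fold changes were then from -0.93 for Apaf1 (SE 0.13, adjusted p = 0.0150) to -1.56 for Nlrp3 (SE 0.20, adjusted p = 0.0150), with a median of -1.20. The calls also rested on single other libraries, since without cKO EAE 1, or without any 1 of the control EAE libraries, none of the 9 was called and 0% of all genes. This comparison shares the control EAE libraries with the response of control mice.

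Without disease the genotypes were not told apart. Casp4, Ripk3 and Mlkl had too few counts to be tested, and of the other 6 none was called, with 0 at an unadjusted p below 0.05 and 0 called by DESeq2, which called 0.00584% of all genes, or by limma voom, which called 0%. Of all 17133 genes tested, 0% were called and 0.181% had an unadjusted p below 0.05. Log2 fold changes in cKO against control basal libraries ran from -0.35 for Gsdmd (SE 0.47) to 0.89 for Pycard (SE 0.60), each with an adjusted p of 0.997. Without cKO basal 2 the fold change of Pycard was 0.17 (SE 0.38). Apaf1, whose groups did not overlap, had 14.2 ± 2.45 CPM in cKO and 10.8 ± 1.15 CPM in control basal libraries (SD, n = 3 each), a log2 fold change of 0.40 (SE 0.26). Of all genes tested, 2.14% had cKO basal libraries all above control basal libraries.

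The difference between the responses was tested itself, as the response of cKO mice minus that of control mice. It was negative for all 9 genes, from -0.74 for Casp4 (SE 1.45) to -3.02 for Mlkl (SE 1.21), with a median of -1.70, and none was called by edgeR, as 0% of all genes were. An unadjusted p below 0.05 was found for 4 of 9, Nlrp3, Pycard, Mlkl and Apaf1, and for 9.12% of all genes. Apaf1 had the smallest of these, with a difference of -1.54 (SE 0.33, unadjusted p = 0.000765, adjusted p = 0.547), and was the member called by both DESeq2 (1 of 9, 0.414% of all genes) and limma voom (1 of 9, 16.1%). Without cKO basal 2 and cKO EAE 3 the differences ran from -0.62 for Casp1 (SE 0.43) to -1.62 for Ripk3 (SE 0.57), with a median of -1.25 and 0 calls. A response of different size in the genotypes is therefore not shown for these genes, even though the calls in control and cKO mice differed.

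**Figure D2:**
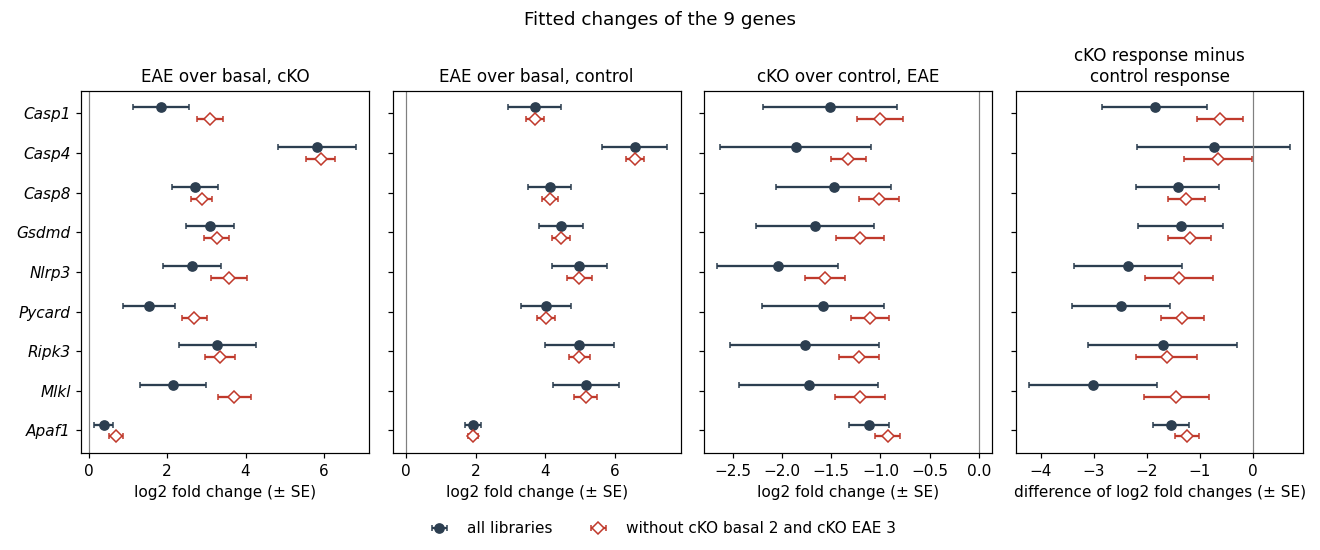
Fitted log2 fold changes of the 9 genes in 4 comparisons, one per panel, with bars for the SE, from all libraries (filled circles) and without cKO basal 2 and cKO EAE 3 (open diamonds). The grey line marks 0, and the panels have scales of their own. The diamonds in the panel of cKO over control at EAE run from -1.56 to -0.93.

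Compared per length of the gene model, Gsdmd had the highest mean during EAE, overlapping Casp1 in both genotypes. The length of the transcripts present was not measured, so the order depends on the gene models. In cKO EAE libraries the mean levels ran from 6.63 ± 4.68 CPM per kb for Gsdmd to 0.924 ± 0.765 CPM per kb for Ripk3, and every neighbouring pair in the order overlapped. In control EAE libraries the order was Gsdmd at 21.5 ± 5.98 CPM per kb, Casp1 at 15 ± 2.83, Casp8 at 13.1 ± 1.44, Casp4 at 9.02 ± 1.45, Pycard at 7.61 ± 1.02, Mlkl at 5.72 ± 1.55, Nlrp3 at 5.64 ± 0.890, Apaf1 at 4.54 ± 0.274 and Ripk3 at 3.25 ± 0.223 CPM per kb (SD, n = 3). Only Casp8 over Casp4 and Apaf1 over Ripk3 were neighbours without overlap. At basal Apaf1 had the highest mean, overlapping Casp1 in both genotypes, with 1.57 ± 0.271 CPM per kb in cKO and 1.20 ± 0.128 CPM per kb in control libraries. Casp4 had the lowest mean there, overlapping Ripk3 in both genotypes, with 0.0371 ± 0.0333 CPM per kb in cKO and 0.0938 ± 0.0308 CPM per kb in control libraries, whereas it was the fourth of the order in control EAE libraries.

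The libraries differed in the same way for most of the genes. Within cKO EAE, library 2 was the highest, library 1 the next and library 3 the lowest for 8 of 9 genes, and for Mlkl library 1 was the highest. Within control EAE, library 1 was the highest, library 3 the next and library 2 the lowest for 7 of 9. Set against the mean of control basal libraries, the median of the 9 genes was 2.84, 3.38 and 0.39 log2 units higher in cKO EAE 1, 2 and 3. The same median was 4.57, 4.03 and 4.25 log2 units higher in control EAE 1, 2 and 3. The cKO EAE 3 library thus lay near basal for the members as a group, with values from -0.49 for Ripk3 to 1.17 for Casp4.

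**Figure D3:**
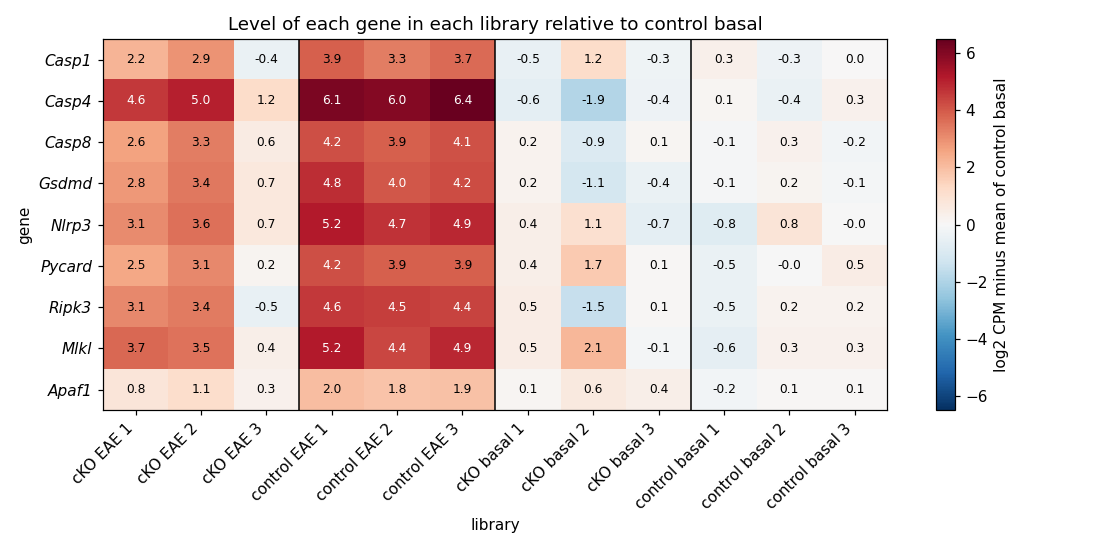
Level of each gene (rows) in each library (columns) as log2 CPM minus the mean of the control basal libraries, printed in each cell and coloured from blue (lower) to red (higher). The columns run from cKO EAE through control EAE and cKO basal to control basal. The cKO EAE 3 column, with a median of 0.39, looks like the basal columns, and Casp4 has the deepest red, up to 6.43 in control EAE 3.

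Likeness of pattern was measured as the root mean square difference of centred log2 CPM over the 12 libraries, so that a small value means parallel profiles. Among the members, Casp8 and Gsdmd were closest at 0.26, followed by Casp1 and Pycard at 0.38 and by Nlrp3 and Mlkl at 0.44. Casp4 and Apaf1, with the largest and the smallest EAE change, were farthest apart at 2.39. Among 17477 other genes that averaged 1 CPM or more in some group, the nearest to Casp1 was Btk at 0.19, to Casp8 Il4ra at 0.20, to Gsdmd Cmklr1 at 0.22 and to Pycard Apol9a at 0.24. Nearest to Ripk3 was Rasal3 at 0.28, to Mlkl Gm46224 at 0.28, to Nlrp3 Traf3ip3 at 0.33, to Casp4 Il1a at 0.34 and to Apaf1 Tmod3 at 0.15. All these values come from the same 12 libraries and share their depth and composition.

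Markers of infiltrating and resident immune cells moved with these genes. The summed level of the 9 genes was 26.1 to 135 CPM in cKO EAE, 222.1 to 295 CPM in control EAE, 22.3 to 32.0 CPM in cKO basal and 18.1 to 21.9 CPM in control basal libraries. A list of 8 monocyte and macrophage markers summed to 118 to 1782 CPM in cKO EAE, 3270 to 5847 CPM in control EAE, 41.3 to 70.5 CPM in cKO basal and 49.0 to 73.9 CPM in control basal libraries. For 8 microglia markers, with Tmem119 and P2ry12 among them, the sums were 302 to 1544 CPM, 1824 to 2208 CPM, 186 to 284 CPM and 270 to 283 CPM in the same order. Fn1 and Lyz2 weighed most in the monocyte sum during EAE, with means of 471 and 347 CPM in cKO and 1801 and 2050 CPM in control libraries. At basal Fn1 alone averaged 47.1 CPM in cKO and 47.0 CPM in control libraries. Each of the 8 monocyte markers was lower in every cKO EAE library than in any control EAE library, as were 26.7% of all genes. T cell markers summed to 5.47 to 48.3 CPM in cKO EAE and 97.9 to 108 CPM in control EAE libraries, while at basal they stayed at or below 5.41 CPM, with Cd8a at 0 in cKO and Cd3g at 0 in control libraries. Neutrophil markers overlapped between the genotypes at EAE, with 34.8 to 131 CPM in cKO and 76.9 to 104 CPM in control libraries. Neuron markers went the other way, with 3306 to 4583 CPM in cKO EAE and 1770 to 2273 CPM in control EAE libraries, as did oligodendrocyte markers, with 17769 to 24232 CPM in cKO EAE and 12697 to 16074 CPM in control EAE libraries. Astrocyte markers summed to 3739 to 4444 CPM in cKO EAE and 3712 to 3760 CPM in control EAE libraries. Of the 8 markers of each list, edgeR called 0 of the microglia markers, 0 of the monocyte and macrophage markers, 1 of the T cell markers lower and 5 of the neuron markers higher in cKO against control at EAE. Without cKO EAE 3 these counts were 0, 8 lower, 7 lower and 6 higher. Of 8 astrocyte markers 3 were called higher, and 3 higher and 1 lower without cKO EAE 3, while of 8 oligodendrocyte markers 0 were called, and 6 higher without that library. Among all 17914 genes tested, 1374 were called in either direction, and 275, or 1.54%, were lower. Without cKO EAE 3 it was 3336 of 18319 in either direction, and 1667, or 9.1%, were lower.

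The summed level of the 9 genes equalled 4.05 to 6.22% of the summed microglia and monocyte markers in cKO EAE and 3.66 to 5.05% in control EAE libraries, ranges that overlap. At basal this ratio was 6.33 to 14.1% in cKO libraries, with the highest value in cKO basal 2, and 5.49 to 6.45% in control libraries. Such sums weigh each marker by its level, so highly counted ones such as Fn1, Lyz2 and Csf1r carry more of the ratio. The part of cell makeup in the lower levels of cKO EAE libraries was not tested.

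**Figure D4:**
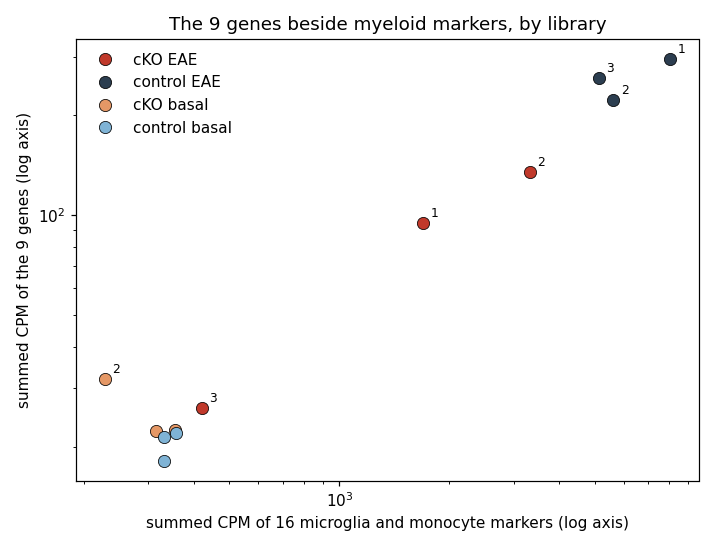
Summed level of the 9 genes in CPM (vertical, log axis) against the summed level of 16 microglia and monocyte markers in CPM (horizontal, log axis), 1 point per library, with colours for the groups and numbers for the EAE libraries and cKO basal 2. The control EAE points lie at the top right, from 222.1 to 295 CPM, and cKO EAE 3 lies beside the basal points at 26.1 CPM.

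Around the members, 72 other genes of the same pathways were followed in 8 lists. In control mice 38 of the 64 tested rose with EAE and 0 fell, with a median log2 fold change of 2.11, where 12.1% of all genes were called higher. Without cKO basal 2 and cKO EAE 3, 48 were called higher, against 24.9% of all genes, and 4 lower. The 4 were Serpinb1a, Gsdme, Cycs and Bcl2l2, which are named after their values were seen. In cKO mice 0 of 64 were called by edgeR, and the median was 0.92, while DESeq2 called 24 (6.66% of all genes) and limma voom 30 (19.6%). Without cKO basal 2 and cKO EAE 3, 36 of the 64 were called higher in cKO mice, with 10.8% of all genes. In cKO against control libraries at EAE 1 was called higher and 5 lower, with a median of -0.95. Of all 17914 genes, 1374 were called in either direction and 275, or 1.54%, were lower. Without cKO EAE 3 the pathway counts were 1 and 33, with 9.1% of all genes lower. At basal 0 of 53 tested, and in the difference between responses 0 of 64 tested, were called, as were 0% of all genes in both.

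Beside the counts of each list below, 12.1% of all genes were called higher in control mice with EAE. In cKO against control at EAE 1.54% of all genes were called lower. Of the 11 inflammasome sensors, Nlrp6 and Nlrp12 had too few counts to be tested. In the basal libraries alone only 5 of the list had enough counts, and Mefv had 3 over the control basal libraries. For such genes the filter itself favoured those high at EAE. In control mice 9 of 9 tested inflammasome sensors rose, among them Aim2, which detects cytosolic DNA, by 2.39 log2 units (SE 0.37, adjusted p = 0.00319), and Naip5 and Naip6, receptors for bacterial flagellin, by 4.51 and 4.55. In cKO against control EAE libraries Aim2 averaged 16.6 ± 7.44 and 32.4 ± 4.04 CPM, and none of the sensors was called. Without cKO EAE 3, 6 of 9 were called lower, with 9.1% of all genes. Naip genes are near-identical copies, and their counts are uncertain. Of the triggers and regulators 5 of 9 rose in control mice, with the interferon-induced GTPases Gbp2 and Gbp5, which open bacterial surfaces to caspase-11, at 7.44 and 6.33 log2 units. The other 3 were the signalling adaptor Card9 at 2.81, the ATP-gated channel P2rx7 at 2.21 and Txnip, an NLRP3 partner, at 1.89. Gbp2 averaged 106 ± 90.0 CPM in cKO EAE and 506 ± 187 CPM in control EAE libraries. Its mean was 158 CPM in cKO EAE 1 and 2, and cKO EAE 3 had 3.59 CPM. Serpinb1a, an inhibitor of proteases and of inflammatory caspases, was the gene called higher in cKO EAE, with 29.9 ± 2.98 CPM against 20.1 ± 2.03 CPM in control EAE (log2 fold change 0.61, SE 0.13, adjusted p = 0.0474).

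Of the interleukin-1 family cytokines and their antagonists 4 of 6 rose in control mice, the cytokines Il1a and Il1b and the antagonists Il1rn and Il18bp. Il1b averaged 16.3 ± 14.2 CPM in cKO EAE, 74.8 ± 22.2 CPM in control EAE, 0.501 ± 0.512 CPM in cKO basal and 0.0764 ± 0.0298 CPM in control basal libraries. In cKO EAE 1 and 2 it averaged 24.4 CPM, and in cKO EAE 3 it had 0.182 CPM. Its rise in control mice was 9.79 log2 units (SE 1.59, adjusted p = 0.00329), on a baseline of 4 counts. Il1rn, the interleukin-1 receptor antagonist, averaged 15 ± 13 CPM in cKO EAE and 67.1 ± 18.1 CPM in control EAE libraries, and had 1 count in cKO basal and 1 in control basal libraries over 3 libraries each. Over cKO EAE 1 and 2 its mean was 22.5 CPM, and cKO EAE 3 had 0 CPM. Il1a rose by 6.43 and Il18bp, whose product binds and blocks interleukin-18, by 3.06. Il18 itself had 16.8 ± 3.59 CPM in cKO EAE, 17.2 ± 0.0896 CPM in control EAE, 26.0 ± 20.9 CPM in cKO basal and 17.3 ± 4.44 CPM in control basal libraries, and was called in no comparison. The cKO basal mean held 50.1 CPM in cKO basal 2, beside 13.1 and 14.7 CPM in cKO basal 1 and 3. Il18bp was called lower in cKO EAE, at 14.2 ± 6.45 CPM against 47.1 ± 12 CPM in control EAE (log2 fold change -1.70, SE 0.38, adjusted p = 0.0485).

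Of the other caspases 4 of 6 tested rose in control mice, among them Casp12 by 3.37 log2 units. Casp2 was called lower in cKO EAE than in control EAE libraries (log2 fold change -0.54, SE 0.10, adjusted p = 0.0440). Most gasdermins besides Gsdmd were too low to be tested. Gsdme was counted at a level of 17.7 CPM or more in every library and was not called with all libraries. Leaving out cKO basal 2 and cKO EAE 3, it was called lower in control EAE than in control basal libraries (log2 fold change -0.59, SE 0.14, adjusted p = 0.00401). Ninj1, whose product completes membrane rupture after gasdermin pores, rose by 1.37 in control mice and was called lower in cKO EAE, at 22.3 ± 5.07 CPM against 51.0 ± 12.8 CPM in control EAE (log2 fold change -1.15, SE 0.23, adjusted p = 0.0454).

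Death receptor and necroptosis genes rose in 8 of 12 cases in control mice. They included Ripk1, the partner kinase of RIPK3, by 2.72 (SE 0.39, adjusted p = 0.00318), the receptors Tnfrsf1a and Fas by 2.65 and 2.40, and Zbp1, a sensor of Z-form nucleic acid that engages RIPK3, by 8.82 (SE 1.64, adjusted p = 0.00510). Zbp1 averaged 20.9 ± 19.0 CPM in cKO EAE and 81.6 ± 19.0 CPM in control EAE libraries, and had 18 counts in cKO basal and 9 in control basal libraries over 3 libraries each. Its mean was 31.2 CPM in cKO EAE 1 and 2, and cKO EAE 3 had 0.182 CPM. The death ligand Tnfsf10 was called lower in cKO EAE, at 12 ± 2.13 CPM against 22.0 ± 2.55 CPM in control EAE (log2 fold change -0.83, SE 0.17, adjusted p = 0.0444).

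Of 11 inducers of the mitochondrial route 3 rose in control mice, Bcl2l11 by 2.14, Bmf by 2.34 and Bid by 0.84, all of which encode BH3-only proteins. Bid, which caspase-8 cuts, was called lower in cKO EAE (log2 fold change -0.51, SE 0.11, adjusted p = 0.0474). Cycs, the cytochrome c gene whose product APAF1 binds, averaged 63.7 ± 5.72 CPM in cKO EAE and 54.4 ± 3.44 CPM in control EAE libraries and was called in no comparison with all libraries. With cKO basal 2 and cKO EAE 3 left out, Cycs was called lower in control EAE than in control basal libraries (log2 fold change -0.75, SE 0.16, adjusted p = 0.00221). Inhibitors of apoptosis rose as well, in 4 of 9 cases in control mice, with Birc3 at 4.70, Mcl1 at 1.82 and Bcl2a1d at 7.88 log2 units, the last on 5 counts in control basal libraries and with near-identical copies in the genome.

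**Figure D5:**
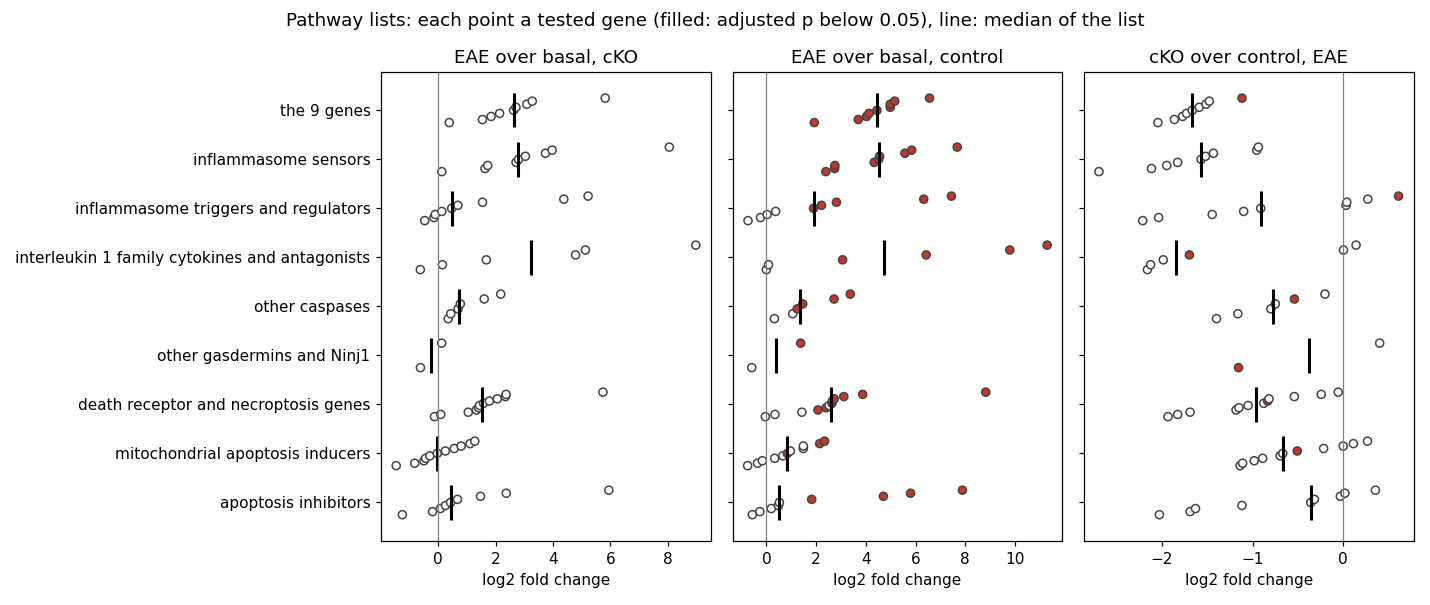
Log2 fold change of each tested gene (points) in the 9 genes and in 8 pathway lists (rows), for EAE over basal in cKO mice, EAE over basal in control mice and cKO over control at EAE, from left to right. Filled points passed an adjusted p of 0.05, and the black lines mark the median of each list. The filled points are many in the middle panel, where 9 of 9 members and 38 of 64 other genes passed. The left panel has none, and the right panel has 1 member and 6 other genes.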

How the data were processed

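Total RNA of spinal cord was sequenced in 12 libraries. The values deposited by the authors were whole-number read counts for each gene, not normalised. According to the submitters' processing notes the authors used HISAT2 2.0.5, build mm10 and featureCounts 1.5.0-p3. The strand setting, the handling of multi-mapped reads and the annotation release are not given in the sources used here. All 9 genes had the same coordinates in GENCODE M21. The deposited counts were tested in R 4.3.3 with the quasi-likelihood F test of edgeR 4.0.16, after TMM scaling and edgeR's own filter of low genes, with Benjamini-Hochberg adjustment over all genes tested. Responses to EAE and their difference came from 1 fit of all 12 libraries, and cKO against control from the 6 libraries of each condition. The SE was the size of the log2 fold change divided by the square root of F. Library totals of 15128913 to 17592105 counts set the counting precision, and p-values measure the spread between libraries labelled as biological replicates. Alternatives were size factors and the Wald test of DESeq2 1.42.0, voom with sample weights of limma 3.58.1, testing all detected genes, a block for the replicate number, other sets of libraries in a fit and leaving out libraries. The members, the 8 pathway lists and the 7 marker lists were chosen with earlier results of these data known. The text names all members. Of each pathway list it names up to 3 genes with the smallest p in a comparison and at least 1 CPM on average in some group, always Il1b, Il18, Ripk1, Zbp1 and Cycs, and for likeness the nearest genes. Some genes of this rule are not reported here. The tests were run on simulated counts with the same spread for all genes and no library that stood apart. That setting differs from these data, so the check does not cover the effect of such libraries on the calls.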

Additional observations from a re-analysis of the deposited data

How the results depend on the processing

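The 9 calls in control mice with EAE held under every alternative that was run, and the sign of all 9 genes held in both EAE responses, in cKO against control at EAE and in the difference between responses. Counts of calls in cKO libraries depended on the method. For cKO mice with EAE, where edgeR called 0 members and 0 other pathway genes, these counts were 3 and 16 without a filter on low counts (1.42% of all genes), 5 and 24 with DESeq2's Wald test (6.66%), 9 and 30 with limma voom (19.6%), and 9 and 36 without cKO basal 2 and cKO EAE 3 (10.8% higher). Leaving out 1 library at a time gave 0 to 8 members and 0 to 24 pathway genes, the highest without cKO EAE 3. For cKO against control at EAE, where edgeR called 1 member and 6 pathway genes, the counts were 5 and 27 with DESeq2 (23.1% of all genes), 8 and 40 with limma voom (32.3%), and 0 and 0 with all 12 libraries in 1 fit (0%). Leaving out 1 library gave 0 to 9 members and 0 to 34 pathway genes. With the replicate block 0 members, 0 pathway genes and 0% of all genes were called there. The labels do not say whether equal replicate numbers mark paired samples. Same-numbered libraries had correlations of -0.458 to 0.371 across genes, and a library correlated best with its own number in 11 of 24 cases. With 3 libraries in a group these values cannot decide it, and the main tests took the samples as unpaired. For the difference between responses DESeq2 called 1 member, and limma voom 1 member and 14 pathway genes. The cause of these shifts was not tested.

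Signs turned for some fold changes, none of them called by edgeR with all libraries. At basal, limma voom gave cKO against control values of -0.24 for Casp1, 0.13 for Casp8, -0.57 for Nlrp3, -0.11 for Il18 and -0.18 for Cycs. Leaving out 1 library there gave -0.44 to 0.63 for Casp1, -0.31 to 0.19 for Casp8, -0.22 to 0.92 for Nlrp3, -0.31 to 0.91 for Il18, -0.37 to 1.35 for Cycs and -0.0040 to 0.35 for Ripk1. Il18 in control mice with EAE had 0.0353 with DESeq2's size factors, 0.0353 with its Wald test, 0.0047 with the replicate block, 0.199 with limma voom, 0.0022 without both libraries and -0.17 to 0.22 leaving out 1. In cKO mice with EAE Il18 had 0.47 with limma voom, 0.40 without both libraries and -0.94 to 0.27 leaving out 1, and Ninj1 had -0.12 to 0.39. In cKO against control at EAE Il18 had -0.0037 with DESeq2's size factors, -0.0035 with its Wald test, -0.022 with the replicate block, -0.0385 with all 12 libraries in 1 fit and -0.18 to 0.14 leaving out 1. In the difference between responses limma voom gave 0.27 for Il18 and 0.49 for Cycs, leaving out both libraries 0.39 and 0.55, and leaving out 1 library -0.92 to 0.26 for Il18 and -1.11 to 0.58 for Cycs. Depth limits the basal values, since Casp4, Ripk3 and Mlkl had too few counts there for a test.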
